A study of Mus musculus with 12 samples.

Results

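The genes described here are 8 growth factors and 1 growth factor receptor of the macrophage: Igf1, Pdgfa, Pdgfb, Pdgfc, Hbegf, Tgfb1, Csf1, Grn and the CSF1 receptor gene Csf1r. They were chosen by symbol, without regard to their levels in these samples, and all 9 are among the 14098 genes of the table. RNA was measured in bone marrow-derived macrophages (BMDM) of WT mice and of mice that lack Camkk2, a calcium- and calmodulin-dependent kinase kinase; the latter are called KO, and nothing in the labels restricts the deletion to a cell type. All donors were C57Bl/6 mice of either sex, aged 8 to 10 weeks. Cells of every group had been grown from bone marrow with 30% L929-conditioned medium, a customary source of the CSF1 protein, and were then embedded in a hydrogel of collagen and hyaluronic acid. The WT stiff and KO stiff groups had their matrix stiffened by UV crosslinking 24 h after embedding and were kept for 48 h afterwards. Their gel also held more collagen than the soft gel and received a photoinitiator, which the soft gel did not. In the stiff comparisons, stiffness, collagen, photoinitiator and UV light therefore cannot be told apart. The study reports that neither UV light nor the collagen concentration affected macrophage phenotype, judged by surface markers. The WT soft and KO soft groups stayed in the soft matrix, and the WT soft+IL-4 and KO soft+IL-4 groups were in the soft matrix with the cytokine IL-4. Each of the 6 groups holds 2 biological replicates, called library 1 and library 2.

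Macrophages feed their neighbours with growth factors. IGF1 acts through IGF1R on muscle, epithelium and fibroblasts. PDGF chains pair into dimers that drive mesenchymal cells through PDGFRA and PDGFRB. HB-EGF is a membrane-anchored EGFR ligand that is shed by the protease ADAM17, and TGF-beta 1 is secreted in a latent form that must be released before it can bind TGFBR2 and TGFBR1. CSF1 runs the other way: it binds CSF1R on the macrophage itself and keeps the cell alive and differentiated. Progranulin, encoded by Grn, is secreted or sent to the lysosome and cleaved into granulins. IL-4 signals through STAT6 and drives the alternative, repair-associated programme of macrophages, in which IGF1 is a familiar product.

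Igf1 and Pdgfa rose and Pdgfb fell in the soft matrix with IL-4, in WT and in KO BMDM, and the same 3 genes moved in those directions in the WT stiff matrix. Igf1 showed the clearest separation: its mean was 149.7 TPM in WT soft, 309 in WT soft+IL-4 and 312.5 in WT stiff, against 185 in KO stiff. Csf1r fell in WT soft+IL-4 and in WT stiff, Tgfb1 fell in KO soft+IL-4 and WT stiff, and Hbegf rose in KO soft+IL-4. In the KO stiff matrix none of the 8 tested genes passed the test against KO soft, where only 0.0447% of all genes tested passed. Values are TPM, transcript abundances divided by gene length and scaled to the same total in each library, so that levels can be set beside each other between genes. "Rose", "fell" and "passed" refer throughout to limma on log2(TPM + 1), fitted to all 12 libraries and to the 11194 genes that reached 1 TPM in 2 or more libraries, with a Benjamini-Hochberg adjusted p under 0.05.

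**Figure D1:**
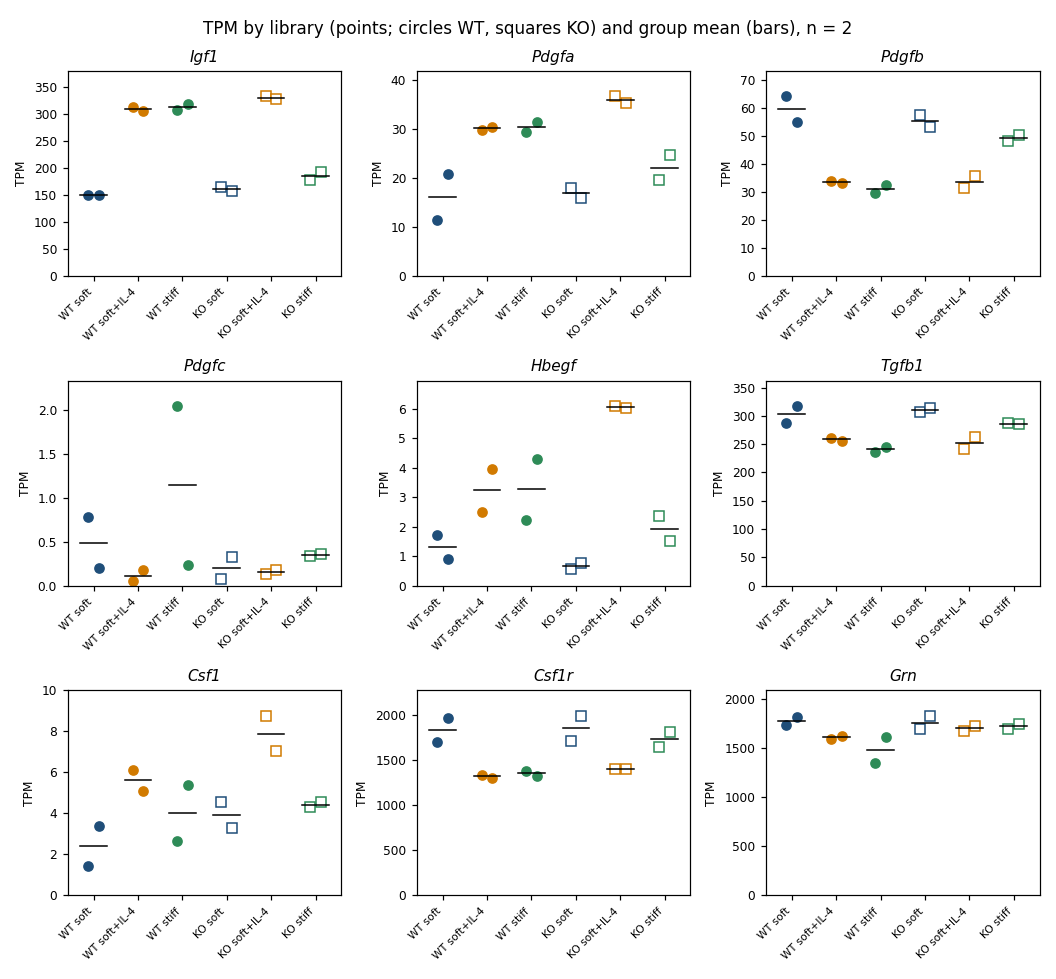
TPM of the 9 genes in each of the 12 libraries (points; circles WT, squares KO) with the mean of each group (bars, n = 2); each panel has its own linear axis from 0. Igf1 lies between 149 and 192 TPM in the soft and KO stiff libraries and between 304 and 332 TPM in the soft+IL-4 and WT stiff libraries, with nothing in between.

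Some properties of the libraries bear on every value below. TPM keeps no read counts, so the depth of each library and the counting error of each value are unknown; the share of the 14098 genes at 0 was 5.90% to 7.54% in libraries numbered 2 and 10.7% to 13.4% in those numbered 1. Camkk2 went against the genotype label of 3 libraries, and in each of their groups library 1 was high and library 2 low: the library labelled WT soft 2 held 11.7 TPM, against 23.3 to 44.2 TPM in the others labelled WT, and those labelled KO soft 1 and KO stiff 1 held 46.6 and 37.7 TPM, against 8.54 to 11.5 TPM in the others labelled KO. Over all genes, same-numbered libraries of these groups (KO stiff, KO soft, WT soft) also deviated together from their group means (correlations of 0.283 to 0.314), and in the other pairs of groups the correlation was between -0.05 and 0.0905. Every direction drawn from WT soft, KO soft or KO stiff therefore rests on the labels, and counts are also given without these 3 libraries, which leaves those groups 1 library each and assumes that it varies like the rest. All 8 macrophage markers were detected, with a summed level of 45977 to 57980 TPM in the soft and KO stiff libraries and of 23571 to 25557 TPM in the soft+IL-4 and WT stiff libraries, most of it lysozyme (Lyz2, 40543 to 51543 and 19076 to 21251 TPM). This sum was low in the libraries where Igf1 was high and high where Igf1 was low, and it is mostly Lyz2. Adgre1, Fcgr1, Cd14, Mertk and Csf1r were likewise lower in every soft+IL-4 and WT stiff library than in any soft or KO stiff library. Adgre1 was at 460 to 538 against 802 to 1102 TPM, and Fcgr1 at 18.7 to 26.0 against 92.1 to 150 TPM. Cd68 lay between 1813 and 2123 TPM in all 12 libraries, and Itgam overlapped. The part of these markers in the results was not tested. In such bulk samples, fewer cells of a type and less RNA per cell cannot be told apart. The 6 listed fibroblast markers, among them Col1a1 and Pdgfra, were all under 1 TPM in every library. WT stiff 1 stood apart from WT stiff 2, with 207 against 19.9 TPM for Vegfa and 63.8 against 1.22 TPM for the platelet and stromal protein gene Thbs1, both picked after their values were seen. Summed platelet markers were at 11.8 TPM in WT stiff 1 and 4.09 in WT stiff 2, and endothelial markers at 13.4 and 4.45 TPM. In WT stiff 1 these sums were mostly Treml1 (11.6 TPM) and Pecam1 (11.6 TPM), with Kdr at 1.12 TPM and the other listed markers lower. Of the other platelet markers, Ppbp went the other way (0 TPM in WT stiff 1 and 0.981 in WT stiff 2). Itga2b was at 0.204 and 0.0564 TPM, and Gp9, Gp1bb and Gp6 are not among the genes of the table. WT stiff 2 lay within the range of the other groups for both sums. Summed dendritic cell markers, of which Ccr7 was the most abundant, were at 4.34 and 7.02 TPM in WT soft, 13.4 to 14.1 in WT soft+IL-4 and 13.3 to 21.1 in WT stiff, and at 6.68 to 10.9 TPM in KO soft, 10.6 to 12.3 in KO soft+IL-4 and 8.07 to 8.88 in KO stiff. They were thus higher in WT where Igf1 was high, with the defining markers Flt3 and Zbtb46 at or below 1.53 TPM and Xcr1 at or below 0.281 TPM in every library, and their part in the results was not tested.

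The levels of the 9 genes ranged widely. Grn and Csf1r were among the most abundant transcripts, ranked 99 and 106 by mean TPM among the 14098 genes. Tgfb1 (rank 500) and Igf1 (rank 567) followed, then Pdgfb (2775) and Pdgfa (4181). Csf1 (8713), Hbegf (9600) and Pdgfc (11532) were low, and Pdgfc failed the filter on low values, which leaves 8 tested genes.

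In GRCm38, the same assembly as mm10, Igf1 spans 87858265 to 87937042 of chromosome 10 on the plus strand. The window around its RefSeq start (GRCm38.p6), 250 bases before to 50 after, is shown because Igf1 passed the test in both IL-4 comparisons and in the WT stiff one. This window lies inside the gene span, and the sequence at the upstream edge of that span was not searched. Capitals mark GAGGAA, the core letters bound by PU.1, the macrophage lineage factor that also controls Csf1r; the match begins 60 bases before the start.
Igf1, chr10:87860861-87861160, plus strand: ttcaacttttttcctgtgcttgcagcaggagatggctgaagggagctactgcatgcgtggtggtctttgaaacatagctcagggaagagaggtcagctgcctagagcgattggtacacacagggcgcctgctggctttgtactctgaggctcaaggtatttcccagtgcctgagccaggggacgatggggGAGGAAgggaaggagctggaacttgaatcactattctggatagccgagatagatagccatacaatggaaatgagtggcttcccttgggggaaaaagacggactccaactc
The form of the GAS element bound by STAT6, a TTC and a GAA with 4 bases between them, was searched on both strands and was not in this window. GAGGAA on either strand was in 28.3% and the STAT6 form in 6.95% of the 32851 RefSeq windows of this length, so a match describes the window and no more.

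Igf1 was at 149 and 150.0 TPM in WT soft, 313 and 304 in WT soft+IL-4, and 308 and 317 in WT stiff. In KO BMDM it was at 164 and 156 TPM in soft, 332 and 327 in soft+IL-4, and 177 and 192 in stiff. The 2 libraries of each group lay close together, and the soft+IL-4 and WT stiff libraries were all above the other 6. Igf1 rose with IL-4 by a log2 fold change of 1.04 ± 0.08 (SE) in WT (limma, Benjamini-Hochberg adjusted p = 8.08e-05) and by 1.04 ± 0.08 in KO (limma, Benjamini-Hochberg adjusted p = 8.07e-05). It rose by 1.06 ± 0.08 in WT stiff against WT soft (limma, Benjamini-Hochberg adjusted p = 6.42e-05), a call lost when only those 4 libraries were fitted (adjusted p = 0.0708). In KO stiff against KO soft the log2 fold change was 0.21 (95% confidence interval 0.04 to 0.38), which did not pass (limma, Benjamini-Hochberg adjusted p = 1). The 2 groups did not overlap, as was the case for 32.3% of all genes tested. The study's own plots of genes changed by IL-4 and by the stiff matrix were made from these same samples, so the direction of Igf1 here is not independent evidence.

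Between the stiff groups, Igf1 was lower in KO, with a log2 difference of -0.76 ± 0.08 (limma, Benjamini-Hochberg adjusted p = 0.000958). Without the 3 libraries whose Camkk2 goes against the label, the difference was -0.70 (limma, Benjamini-Hochberg adjusted p = 0.0858). The difference of the stiff responses was tested itself, as the interaction of genotype and stiffness: it was -0.85 ± 0.11 for Igf1 (limma, Benjamini-Hochberg adjusted p = 0.0103). That call did not hold when WT soft 1, WT soft 2, KO soft 1, KO stiff 1 or KO stiff 2 was left out (limma adjusted p between 0.0507 and 0.0693), nor without the 3 libraries together (-0.76, adjusted p = 0.775).

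The known partners of IGF1 were few in these cells. Igf1r, the receptor, lay between 0.865 and 2.81 TPM, the insulin receptor gene Insr between 6.32 and 9.75 TPM, and Igf2r, the mannose 6-phosphate receptor, between 27.3 and 54.8 TPM. Of the 6 tested genes of the IGF list, 1 passed the test in each of the IL-4 comparisons and in WT stiff against WT soft, and it was the same gene; the shares of all genes were 10.7%, 10.3% and 10.6%. Igfbp4, which binds IGF1 and holds it back from its receptor, was at 148 and 242 TPM in WT soft, 44.2 and 39.6 in WT soft+IL-4 and 61.9 and 37.5 in WT stiff. The KO values were 138 and 228 TPM in soft, 40.5 and 41.3 in soft+IL-4 and 127 and 179 in stiff. All soft and KO stiff libraries were above all soft+IL-4 and WT stiff libraries, the reverse of Igf1. Igfbp4 fell by 2.15 ± 0.32 in WT soft+IL-4 (limma, Benjamini-Hochberg adjusted p = 0.00298), fell by 1.95 ± 0.32 in WT stiff (limma, Benjamini-Hochberg adjusted p = 0.00462), and was higher in KO stiff than in WT stiff by 1.62 ± 0.32 (limma, Benjamini-Hochberg adjusted p = 0.0200). The call between the stiff groups was lost without KO stiff 1 or KO stiff 2 (limma adjusted p = 0.0633 and 0.156) and without the 3 doubted libraries (adjusted p = 0.0832), which also ended both WT calls (adjusted p = 0.0554 and 0.0702).

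Pdgfa and Pdgfb, which encode the A and B chains, moved in opposite directions. Pdgfa spans 138976014 to 138997370 of chromosome 5 and Pdgfb 79995874 to 80014977 of chromosome 15, both on the minus strand. RefSeq gives Pdgfa 2 start windows, shown as those of the other ligand gene that rose in all 3 comparisons; capitals mark TTCCTC, which is GAGGAA on the opposite strand and begins 27 bases before the start in the first window. The second window holds neither motif, and the first does not hold the STAT6 form of the GAS element. Both windows lie inside the gene span, and the sequence at its upstream edge was not searched.
Pdgfa, first window, chr5:138994895-138995194, minus strand: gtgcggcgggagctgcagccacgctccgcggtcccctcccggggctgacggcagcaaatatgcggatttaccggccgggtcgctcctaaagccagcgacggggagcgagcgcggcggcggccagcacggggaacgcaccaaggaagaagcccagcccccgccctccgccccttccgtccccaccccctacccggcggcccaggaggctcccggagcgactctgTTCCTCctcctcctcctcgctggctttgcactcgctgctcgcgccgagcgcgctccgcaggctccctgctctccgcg
Pdgfa, second window, chr5:138994232-138994531, minus strand: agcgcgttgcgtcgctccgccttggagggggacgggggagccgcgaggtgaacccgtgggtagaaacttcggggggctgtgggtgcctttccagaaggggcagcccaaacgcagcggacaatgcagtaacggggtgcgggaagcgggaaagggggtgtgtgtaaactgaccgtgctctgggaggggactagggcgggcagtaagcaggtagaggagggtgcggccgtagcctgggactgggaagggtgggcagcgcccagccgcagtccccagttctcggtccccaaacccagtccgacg
Of the other genes, the single windows of Tgfb1 and Csf1 hold neither motif, that of Grn holds GAGGAA 2 times and that of Pdgfc 1 time.

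Pdgfa was at 11.4 and 20.8 TPM in WT soft, 29.9 and 30.4 in WT soft+IL-4, and 29.4 and 31.4 in WT stiff. In KO BMDM it was at 17.9 and 15.9 TPM in soft, 36.7 and 35.3 in soft+IL-4, and 19.6 and 24.7 in stiff. WT soft 1 was the lowest library by some distance, and KO stiff lay between KO soft and the high groups. Pdgfa rose with IL-4 by 0.92 ± 0.22 in WT (limma, Benjamini-Hochberg adjusted p = 0.0298) and by 1.05 ± 0.22 in KO (limma, Benjamini-Hochberg adjusted p = 0.0176), and it rose by 0.93 ± 0.22 in WT stiff (limma, Benjamini-Hochberg adjusted p = 0.0289). The WT values rest in part on WT soft 1: without it they were 0.51 with IL-4 and 0.52 in the stiff matrix, and neither passed (limma adjusted p = 0.115 and 0.116). The WT calls were also lost without either library of WT soft+IL-4 or of KO soft+IL-4 (limma adjusted p between 0.0515 and 0.146), and the KO call without any 1 of its 4 libraries (limma adjusted p between 0.0674 and 0.119).

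Pdgfb was at 64.3 and 55.1 TPM in WT soft, 34.1 and 33.3 in WT soft+IL-4, and 29.8 and 32.6 in WT stiff. KO libraries held 57.7 and 53.3 TPM in soft, 31.6 and 35.9 in soft+IL-4, and 48.3 and 50.3 in stiff. The soft and KO stiff libraries were all above the soft+IL-4 and WT stiff libraries. Pdgfb fell by 0.80 ± 0.11 with IL-4 in WT (limma, Benjamini-Hochberg adjusted p = 0.00193), fell by 0.70 ± 0.11 in KO (limma, Benjamini-Hochberg adjusted p = 0.00375) and fell by 0.91 ± 0.11 in WT stiff (limma, Benjamini-Hochberg adjusted p = 0.000918). It was higher in KO stiff than in WT stiff by 0.64 ± 0.11 (limma, Benjamini-Hochberg adjusted p = 0.0107), a call lost without KO stiff 1 or KO stiff 2 (limma adjusted p = 0.0707 and 0.0914) and without the 3 doubted libraries (0.67, adjusted p = 0.159). Without KO soft+IL-4 1 the fall in KO just missed the threshold (-0.61, limma adjusted p = 0.0501). The interaction of genotype and stiffness was 0.74 ± 0.15 and did not pass (limma, Benjamini-Hochberg adjusted p = 0.0670), although it did without WT stiff 2 (0.81, limma adjusted p = 0.00822).

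The ratio of the B chain to the A chain transcript, which was computed after the separate values were seen and is given without a test, shows this in each library. It was 5.63 and 2.64 in WT soft, 1.14 and 1.10 in WT soft+IL-4, and 1.01 and 1.04 in WT stiff. Among KO libraries it was 3.22 and 3.34 in soft, 0.861 and 1.02 in soft+IL-4, and 2.47 and 2.04 in stiff. Thus about equal amounts of the 2 transcripts were present in the soft+IL-4 and WT stiff libraries, and more Pdgfb than Pdgfa in the other 6.

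**Figure D2:**
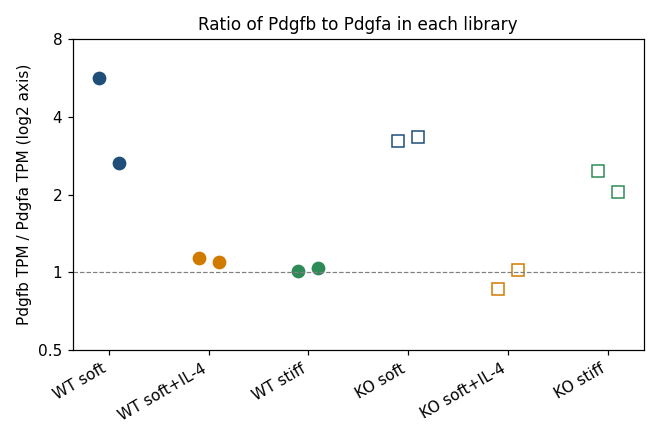
Ratio of Pdgfb to Pdgfa TPM in each library (log2 axis; circles WT, squares KO; the dashed line marks equal levels). The soft and KO stiff libraries lie between 2.04 and 5.63, and the soft+IL-4 and WT stiff libraries between 0.861 and 1.14.

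Pdgfc, which encodes a chain that needs proteolysis to become active, was close to absent. It was above 1 TPM in WT stiff 1 alone (2.04 TPM, against 0.239 in WT stiff 2), the library that stood apart for Vegfa and Thbs1, and between 0.0470 and 0.775 TPM in the other 11. The receptors Pdgfra and Pdgfrb stayed at or below 0.117 and 0.819 TPM, so these libraries held hardly any transcript of the PDGF receptors. The related VEGF receptors were another matter: Flt1 (VEGFR1) was at 2.91 and 2.17 TPM in WT soft, 27.4 and 27.2 in WT soft+IL-4, and 36.3 and 27.7 in WT stiff. In KO BMDM it was at 3.16 and 1.86 TPM in soft, 29.0 and 29.9 in soft+IL-4, and 7.88 and 9.17 in stiff, so that KO stiff lay apart from both the soft and the high libraries. Flt1 rose by 3.01 ± 0.20 with IL-4 in WT (limma, Benjamini-Hochberg adjusted p = 4.84e-05), rose by 3.14 ± 0.20 in KO (limma, Benjamini-Hochberg adjusted p = 3.67e-05) and rose by 3.22 ± 0.20 in WT stiff (limma, Benjamini-Hochberg adjusted p = 3.52e-05). It was lower in KO stiff than in WT stiff, with a log2 difference of -1.78 ± 0.20 (limma, Benjamini-Hochberg adjusted p = 0.00142). Kdr (VEGFR2), at 0.489 to 4.20 TPM in all libraries, fell in both IL-4 comparisons and in WT stiff, where the co-receptor gene Nrp1 fell too. With 1 library left out, the Kdr calls were lost in 3, 4 and 5 of 12 cases (limma adjusted p up to 0.144, 0.103 and 0.211). Nrp1 was at 103 and 115 TPM in WT soft and at 44.1 and 78.5 TPM in WT stiff; its log2 fold change of -0.88 was -0.47 without WT stiff 1, and the call was lost in 8 of 12 cases (limma adjusted p up to 0.170). Without the 3 doubted libraries neither gene passed in any of these comparisons, whereas Flt1 did, except between the stiff groups (limma adjusted p = 0.0633).

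Hbegf spans 36504927 to 36515805 of chromosome 18, minus strand. It was at 1.70 and 0.912 TPM in WT soft, 2.50 and 3.96 in WT soft+IL-4, and 2.23 and 4.29 in WT stiff. The KO libraries were at 0.559 and 0.781 TPM in soft, 6.08 and 6.03 in soft+IL-4, and 2.36 and 1.50 in stiff. The KO soft+IL-4 libraries were the highest and the KO soft libraries the lowest of all 12. Hbegf rose by 2.08 ± 0.30 in KO soft+IL-4 (limma, Benjamini-Hochberg adjusted p = 0.00274), and this call held with each library left out, though not without the 3 doubted libraries together (1.99, adjusted p = 0.0806). In WT the log2 fold changes were 0.87 with IL-4 and 0.86 in the stiff matrix, neither of which passed (limma, Benjamini-Hochberg adjusted p = 0.103 and 0.114). Without WT stiff 1 both passed (0.87 and 1.22, limma adjusted p = 0.0360 and 0.0292). The KO response to IL-4 exceeded the WT one by 1.21 ± 0.43, with a 95% confidence interval of 0.24 to 2.17, and this interaction did not pass after correction (limma, Benjamini-Hochberg adjusted p = 1.00). Fold changes of such low genes are understated on the log2(TPM + 1) scale: the ratio of mean TPM was 9.03 in KO and 2.47 in WT.

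The EGF receptor gene Egfr stayed at or below 1.46 TPM and Erbb3 between 0.498 and 1.15 TPM, whereas the sheddase Adam17 was at 90.3 to 168 TPM and the tetraspanin Cd9, which associates with membrane HB-EGF, at 1002 to 1561 TPM. Of 9 tested genes of the EGF list, 4 passed in WT soft+IL-4 and in WT stiff (Errfi1, Cd44 and Cd9 higher, Adam17 lower), and 5 in KO soft+IL-4, where Rhbdf2, a partner of ADAM17, was higher as well; the shares of all genes were 10.7%, 10.6% and 10.3%. Errfi1, an intracellular brake on EGFR, rose by 1.11 ± 0.23 with IL-4 in WT (limma, Benjamini-Hochberg adjusted p = 0.0153) and by 1.51 ± 0.23 in WT stiff (limma, Benjamini-Hochberg adjusted p = 0.00350). Its WT stiff libraries lay apart, at 21.7 and 13.4 TPM, against 12.2 and 13.2 in WT soft+IL-4 and 6.52 and 4.34 in WT soft. Cd44, a proteoglycan that can present HB-EGF and binds hyaluronic acid, was at 104 and 102 TPM in WT soft and 176 and 168 in WT stiff, against 115 and 124 in KO stiff. It rose by 0.73 ± 0.09 in WT stiff (limma, Benjamini-Hochberg adjusted p = 0.00137) and was lower in KO stiff than in WT stiff, with a difference of -0.52 ± 0.09 (limma, Benjamini-Hochberg adjusted p = 0.0136). Adam17 was higher in KO stiff than in WT stiff by 0.58 ± 0.10 (limma, Benjamini-Hochberg adjusted p = 0.0124). The differences of Cd44 and Adam17 between the stiff groups were lost without KO stiff 1 or KO stiff 2 (limma adjusted p up to 0.130 and 0.113), and the IL-4 call of Errfi1 in WT in 3 of 12 cases with 1 library left out (limma adjusted p up to 0.121). Without the 3 doubted libraries none of these calls of Errfi1, Cd44 and Adam17 held.

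Tgfb1 spans 25687002 to 25705077 of chromosome 7, plus strand. It was at 288 and 317 TPM in WT soft, 261 and 255 in WT soft+IL-4, and 237 and 245 in WT stiff. KO libraries held 307 and 315 TPM in soft, 241 and 262 in soft+IL-4, and 288 and 285 in stiff. The soft+IL-4 and WT stiff libraries were all below the other 6, by a small margin. Tgfb1 fell by 0.30 ± 0.08 in KO soft+IL-4 (limma, Benjamini-Hochberg adjusted p = 0.0466) and fell by 0.33 ± 0.08 in WT stiff (limma, Benjamini-Hochberg adjusted p = 0.0355), whereas the difference of -0.22 in WT soft+IL-4 did not pass (limma, Benjamini-Hochberg adjusted p = 0.120). Each of the 2 calls was lost in 10 of 12 cases when 1 library was left out, all but WT stiff 1 and WT stiff 2 (limma adjusted p between 0.0555 and 0.320), and with median-of-ratios scaling. The WT soft+IL-4 difference passed without either WT stiff library (limma adjusted p = 0.0392 and 0.0393).

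The receptors for TGF-beta 1 were present, Tgfbr1 at 13.4 to 39.8 TPM and Tgfbr2 at 24.2 to 107 TPM. Tgfbr1 was at 32.7 and 39.6 TPM in WT soft and 13.4 and 17.3 in WT soft+IL-4, and fell there by 1.19 ± 0.23 (limma, Benjamini-Hochberg adjusted p = 0.0100). Lrrc32 (GARP), which tethers latent TGF-beta 1 to the cell surface, was at 4.80 and 4.46 TPM in WT soft and 33.5 and 32.8 in WT soft+IL-4, and rose by 2.60 ± 0.49 (limma, Benjamini-Hochberg adjusted p = 0.0100). In KO BMDM Lrrc32 was at 6.43 and 4.77 TPM in soft and 38.7 and 35.9 in soft+IL-4, a rise of 2.55 ± 0.49 (limma, Benjamini-Hochberg adjusted p = 0.0111). The 2 WT stiff libraries disagreed for Lrrc32, with 7.12 and 32.7 TPM. Nrros, another regulator of the TGF-beta list, was more abundant and went the other way with IL-4. It was at 155 and 160 TPM in WT soft and 125 and 126 in WT soft+IL-4, a difference that did not pass. Of 19 tested genes of the TGF-beta list, 3 passed in WT soft+IL-4 (Lrrc32, Tgfbr1 and the integrin gene Itgav), 5 in KO soft+IL-4 (these and Acvrl1 and Ltbp3) and 1 in WT stiff (Itgav). These are 15.8%, 26.3% and 5.26% of the list, beside 10.7%, 10.3% and 10.6% of all genes. With 1 library left out the Lrrc32 calls were lost in 4 of 12 cases in WT and 3 in KO and the Tgfbr1 call in WT in 2 (limma adjusted p up to 0.0759, 0.0860 and 0.0977), and none held without the 3 doubted libraries. Itgav, Acvrl1, Ltbp3, Cd9 and Rhbdf2 are named for their place in these small counts, after their values were seen.

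Csf1r spans 61100598 to 61132149 of chromosome 18 (plus strand) and Csf1 107741048 to 107760469 of chromosome 3 (minus strand). Csf1r was at 1701 and 1969 TPM in WT soft, 1333 and 1305 in WT soft+IL-4, and 1382 and 1319 in WT stiff. The KO libraries held 1712 and 1986 TPM in soft, 1401 and 1404 in soft+IL-4, and 1649 and 1809 in stiff. The soft+IL-4 and WT stiff libraries were all below the other 6, and the soft libraries numbered 1 were lower than those numbered 2. Csf1r fell by 0.47 ± 0.11 with IL-4 in WT (limma, Benjamini-Hochberg adjusted p = 0.0256) and fell by 0.44 ± 0.11 in WT stiff (limma, Benjamini-Hochberg adjusted p = 0.0353), and its difference of -0.39 in KO soft+IL-4 just missed the threshold (limma, Benjamini-Hochberg adjusted p = 0.0534). With 1 library left out, the WT soft+IL-4 call was lost in 5 of 12 cases (WT soft 2 and each soft+IL-4 library) and the WT stiff call in 8 of 12 (each WT soft, soft+IL-4 and KO stiff library), with limma adjusted p between 0.0535 and 0.224. The KO soft+IL-4 difference passed without either WT stiff library (limma adjusted p = 0.0131 and 0.0132).

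Csf1, the ligand, was at 1.44 and 3.40 TPM in WT soft, 6.13 and 5.09 in WT soft+IL-4, and 2.66 and 5.40 in WT stiff. KO libraries held 4.57 and 3.30 TPM in soft, 8.75 and 7.05 in soft+IL-4, and 4.32 and 4.54 in stiff. Within each genotype the soft+IL-4 libraries were above the soft ones, and the WT stiff libraries lay on either side of WT soft 2. The log2 fold changes with IL-4 were 1.01 ± 0.32 in WT and 0.86 ± 0.32 in KO, and neither passed on its own (limma, Benjamini-Hochberg adjusted p = 0.0820 and 0.139). Both passed without either WT stiff library (limma adjusted p between 0.0250 and 0.0497), and without WT soft 1 the WT value was 0.58. Averaged over the genotypes, Csf1 rose with IL-4 by 0.93 ± 0.23 (limma, Benjamini-Hochberg adjusted p = 0.0173), a call lost without WT soft 1, WT soft+IL-4 1, KO soft 2 or KO soft+IL-4 1 (limma adjusted p between 0.0559 and 0.0710). CSF1 protein had also been supplied from outside while the cells differentiated, with the L929-conditioned medium.

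Of 16 tested genes of the CSF list, 7 passed in each IL-4 comparison (5 higher and 2 lower) and 5 in WT stiff (Csf2rb, Csf2rb2 and Dok2 higher, Maf and Dok1 lower), beside 10.7%, 10.3% and 10.6% of all genes; Csf2rb2 and Dok2 are named to complete this count, after their values were seen. Csf2rb, the shared signalling chain of the receptors for GM-CSF, IL-3 and IL-5, was at 208 and 199 TPM in WT soft, 439 and 444 in WT soft+IL-4, and 369 and 429 in WT stiff, against 264 and 251 in KO stiff. It rose by 1.12 ± 0.09 with IL-4 in WT (limma, Benjamini-Hochberg adjusted p = 0.000112) and by 0.97 ± 0.09 in WT stiff (limma, Benjamini-Hochberg adjusted p = 0.000231). Maf, whose product restrains macrophage self-renewal, was at 68.1 and 91.6 TPM in WT soft, 15.0 and 13.9 in WT soft+IL-4, and 33.9 and 12.2 in WT stiff. It fell by 2.37 ± 0.37 with IL-4 in WT (limma, Benjamini-Hochberg adjusted p = 0.00388) and fell by 1.90 ± 0.37 in WT stiff (limma, Benjamini-Hochberg adjusted p = 0.0113). The 2 WT stiff libraries lay far apart: without WT stiff 2 the stiff value was -1.20 and without WT stiff 1 -2.60, and the call was lost without WT soft 2 (limma adjusted p = 0.0905). Without the 3 doubted libraries Maf passed in neither comparison (limma adjusted p = 0.140 and 0.218), whereas Csf2rb passed in both. Spi1, which encodes PU.1, lay between 557 and 782 TPM.

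**Figure D3:**
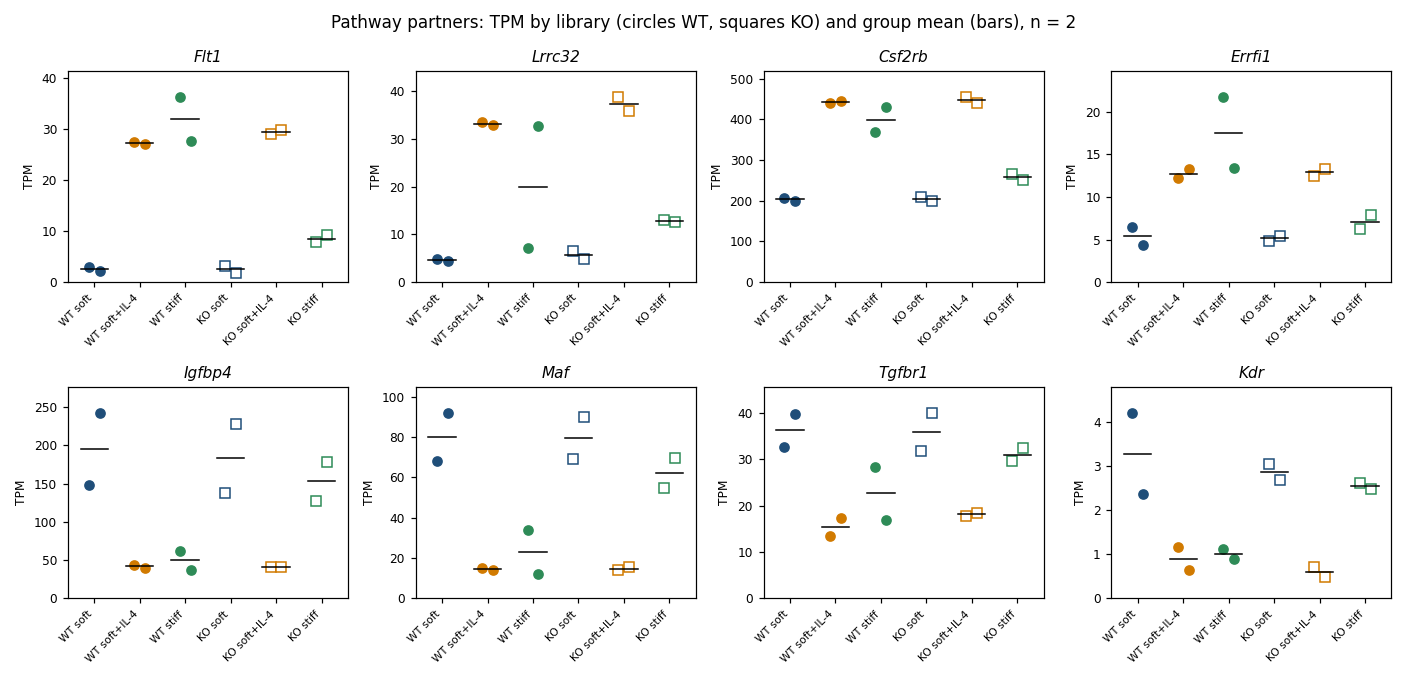
TPM of 8 partner genes in each of the 12 libraries (points; circles WT, squares KO) with the group mean (bars, n = 2), on linear axes from 0. Flt1, Csf2rb and Errfi1 are high in soft+IL-4 and WT stiff, Igfbp4, Maf and Kdr are low there, and the 2 WT stiff libraries stand apart for Lrrc32 (7.12 and 32.7 TPM).

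Grn spans 102430315 to 102437048 of chromosome 11, plus strand. It was at 1730.2 and 1817 TPM in WT soft, 1592 and 1619 in WT soft+IL-4, and 1350.3 and 1608 in WT stiff. The KO values were 1686 and 1823 TPM in soft, 1669.9 and 1723 in soft+IL-4, and 1696 and 1742 in stiff. WT stiff 1 was the lowest library, and the KO groups overlapped. No comparison of Grn passed with all libraries. The log2 fold change was -0.14 (95% confidence interval -0.38 to 0.09) in WT soft+IL-4, -0.05 (-0.28 to 0.19) in KO soft+IL-4 and -0.27 (-0.50 to -0.03) in WT stiff (limma, Benjamini-Hochberg adjusted p = 0.443, 0.833 and 0.153). When WT stiff 2 was left out, so that WT stiff 1 stood alone for its group, the WT stiff difference was -0.39 and passed (limma adjusted p = 0.00267), as did the one between the stiff groups (0.35, limma adjusted p = 0.00582) and the interaction of genotype and stiffness (0.36, limma adjusted p = 0.0229). Of 7 tested genes of the progranulin list, which includes the sorting receptor Sort1 (14.2 to 23.1 TPM), 1 passed in each IL-4 comparison (Lrp1, lower). For WT stiff, 1 passed (the cathepsin gene Ctsl, higher). Beside these counts stand the same 10.7%, 10.3% and 10.6% of all genes. Lrp1 and Ctsl are named after their values were seen. The 2 WT stiff libraries stood apart for both, with 2927 and 1949 TPM of Ctsl and 145 and 102 TPM of Lrp1. The WT soft+IL-4 libraries held 2025 and 1928 TPM of Ctsl and 105 and 102 TPM of Lrp1.

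Counted over the 8 tested genes, 4 passed in WT soft+IL-4 against WT soft (Igf1 and Pdgfa higher, Pdgfb and Csf1r lower), where 10.7% of all genes passed. In KO soft+IL-4 against KO soft 5 passed (Igf1, Pdgfa and Hbegf higher, Pdgfb and Tgfb1 lower), against 10.3% of all genes. With the genotypes averaged 7 passed, all but Grn, against 22.9% of all genes, at log2 fold changes of 1.48 for Hbegf, 1.04 for Igf1, 0.98 for Pdgfa, 0.93 for Csf1, -0.26 for Tgfb1, -0.43 for Csf1r and -0.75 for Pdgfb. The 2 groups did not overlap for 8 of the 8 genes in WT and 7 in KO, beside 61.3% and 60.4% of all genes tested. The median absolute log2 fold change of the 8 genes was 0.84 in WT and 0.78 in KO, beside 0.23 and 0.22 over all genes tested. Without the 3 libraries whose Camkk2 goes against the label, Igf1 and Pdgfa still passed in each genotype, which makes 2 genes in WT and 2 in KO, beside 1.06% and 1.82% of all genes. In WT the fit without those 3 rests on WT soft 1 alone, the lowest library of Pdgfa (11.4 TPM, against 15.9 to 20.8 TPM in the other soft libraries). With WT soft 1 left out instead, the WT log2 fold change of Pdgfa with IL-4 was 0.51, so its call in WT may not be read as robust. The same holds for WT stiff against WT soft. With a 2-fold limit added to the adjusted p, 1 of the 8 genes passed in WT (Igf1), 3 in KO (Igf1, Pdgfa and Hbegf) and 2 on average (Igf1 and Hbegf), beside 3.76%, 3.65% and 4.35% of all genes.

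In WT stiff against WT soft 5 of the 8 genes passed (Igf1 and Pdgfa higher, Pdgfb, Csf1r and Tgfb1 lower), where 10.6% of all genes passed. The count was 3 (Igf1, Pdgfa and Pdgfb) without the 3 doubted libraries, beside 1.35% of all genes, 6 without WT stiff 1 or without WT stiff 2, beside 14.7% and 27.4%. When only the 4 libraries of these groups were fitted it was 0, but so was the count over all 11194 genes. With the 2-fold limit it was 1 (Igf1), beside 3.97% of all genes. In KO stiff against KO soft 0 of the 8 genes passed in limma, as did 0.0447% of all genes; 2 of the 8 (Igf1 and Hbegf) and 295 of 11194 genes had an unadjusted p under 0.05. The IL-4 and stiff comparisons of a genotype share their soft libraries, so their values are set side by side without a test of likeness. The direct comparison of WT stiff with WT soft+IL-4, which does not use them, gave 0 of 8 genes and 0.00% of all genes past the limma test, with 0 of the 8 and 557 of all genes at an unadjusted p under 0.05. This rests on WT stiff 2: without it 1 of the 8 (Grn, lower in WT stiff) and 27.1% of all genes passed. The confidence intervals of that comparison reached 0.73 on either side of the estimate for the least precise gene, so this does not show that the 2 groups were alike.

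**Figure D4:**
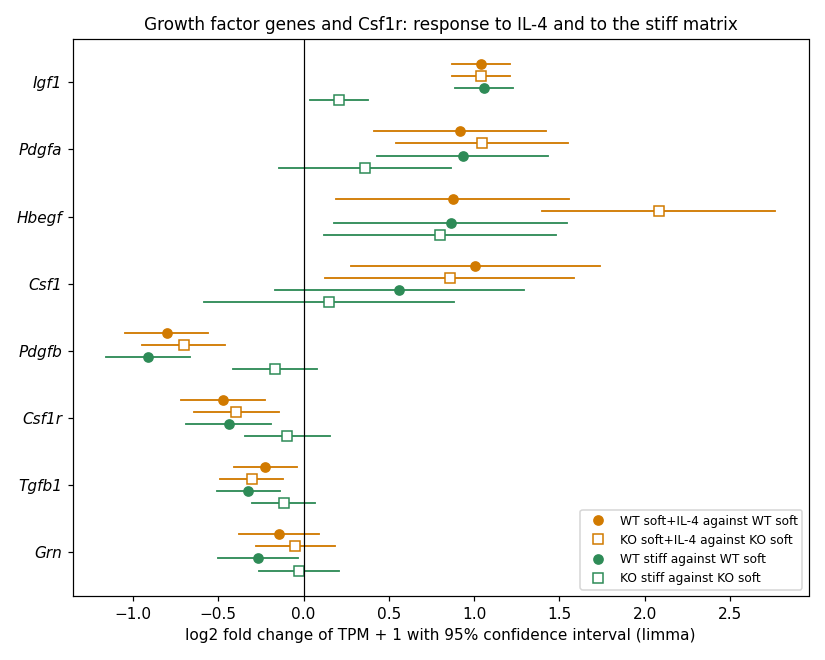
Log2 fold change of TPM + 1 (points) with its 95% confidence interval from limma (lines) for the 8 tested genes, in WT (filled circles) and KO (open squares), with IL-4 (orange) and in the stiff matrix (green), each against the soft matrix of the same genotype. The KO stiff value of Igf1 (0.21) lies apart from its other 3 values (1.04 to 1.06), and KO soft+IL-4 gives the largest value, 2.08 for Hbegf.

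Genotype made no difference that passed in the soft matrix or with IL-4. In KO soft against WT soft, 0 of the 8 genes and 0.00% of all genes passed in limma, with 0 and 130 at an unadjusted p under 0.05. In KO soft+IL-4 against WT soft+IL-4, 0 of the 8 and 0.00% of all genes passed, with 1 (Hbegf) and 233 at an unadjusted p under 0.05. In the stiff matrix 2 of the 8 genes differed, Igf1 lower and Pdgfb higher in KO, where 4.93% of all genes passed; the count was 0, beside 0.179% of all genes, without the 3 doubted libraries, and 4 (Grn and Tgfb1 as well, both higher in KO), beside 24.9%, without WT stiff 2. With the 2-fold limit 0 of the 8 genes passed between the stiff groups and for the interaction of genotype and stiffness, beside 1.98% and 0.670% of all genes. The interaction of genotype and IL-4 passed for 0 of the 8 genes and 0.00% of all genes (1 and 165 at an unadjusted p under 0.05). The interaction of genotype and stiffness passed for 1 of the 8, Igf1, beside 0.974% of all genes, and for 0 without the 3 doubted libraries, beside 0.0179%.

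A wider list of 102 receptors, regulators and other ligands of the same pathways was followed, of which 86 are in the table and 65 were tested. In WT soft+IL-4 18 of the 65 passed (10 higher and 8 lower), in KO soft+IL-4 21 (13 higher and 8 lower) and in WT stiff 15 (8 higher and 7 lower), beside the 10.7%, 10.3% and 10.6% of all genes given above. In KO stiff against KO soft 0 passed, beside 0.0447% of all genes. Between the stiff groups 10 differed (5 higher and 5 lower in KO), beside 4.93% of all genes. The largest of these differences were 1.62 for Igfbp4, 1.54 for Maf, 0.70 for Dok1 and 0.58 for Adam17 among those higher in KO, and -1.78 for Flt1, -1.17 for Errfi1, -0.62 for Csf2rb and -0.52 for Cd44 among those lower. The Maf and Dok1 calls were lost in 10 and 9 of 12 cases with 1 library left out (limma adjusted p up to 0.240 and 0.219). Averaged over the genotypes, Slpi, which binds progranulin and shields it from proteases, also fell with IL-4, by 1.36 ± 0.31 (limma, Benjamini-Hochberg adjusted p = 0.0114), a call lost without WT soft+IL-4 1 and without the 3 doubted libraries (limma adjusted p = 0.0505 and 0.194). Only Flt1, 1 of the 65, passed for the interaction of genotype and stiffness (-1.75 ± 0.28, limma, Benjamini-Hochberg adjusted p = 0.0253), beside 0.974% of all genes. That call was lost when any of 9 libraries was left out. Without the 3 doubted libraries the counts were 2, 4 and 2 in the first 3 comparisons and 0 between the stiff groups, beside 1.06%, 1.82%, 1.35% and 0.179% of all genes.

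The genes whose log2(TPM + 1) followed each member most closely over the 12 libraries are given as a description. These correlations are over libraries that share their 6 groups, so that any gene with the same group pattern scores high. Igf1 was followed by Clint1 (Pearson r = 0.996), Smap2 (0.994) and Plekha3 (0.993), Pdgfa by Pvt1 (0.958), Rnase6 (0.955) and Sept11 (0.954), and Pdgfb by Pnpla7 (0.983), Tmem38b (0.983) and Mapkapk2 (0.982). Csf1r was followed by Abca9 (0.993), Prex1 (0.993) and Sepp1 (0.990), Tgfb1 by Daam1 (0.977), Tob2 (0.973) and Plcl2 (0.970), and Grn by Ehd4 (0.993), Rassf4 (0.982) and Il2rg (0.980). Hbegf was followed by Wdr46 (0.957), Ppargc1b (0.949) and Cox6c (0.947), and Csf1 by Rpl26 (0.964), Rrp12 (0.937) and Tbrg4 (0.930).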

How the data were processed

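RNA of BMDM was measured in 12 libraries, 2 in each of 6 groups, which were taken from the sample labels. The authors deposited 1 table of TPM values per gene, in which reads are divided by gene length and every library is scaled to 1000000. The submitters' processing notes name Trim Galore 0.6.7, Salmon 1.4.0 and mm10, whereas the methods describe snakePipes with STAR, featureCounts and DESeq; the step from reads to TPM, the annotation and the choice of the 14098 genes are not given in the sources used here. A count model could not be used on TPM, and 0 sample columns were left unused. The libraries are strand-specific, poly-A selected and from 2 biological replicates per group.

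The tests used limma 3.58.1 (lmFit, contrasts.fit, eBayes with a trend) under R 4.3.3 on log2(TPM + 1), in 1 model of all 12 libraries with a mean per group and no covariates, which left 6 residual degrees of freedom. The 11194 genes that reached 1 TPM in 2 or more libraries entered, with Benjamini-Hochberg adjustment over all of them within each comparison. The threshold was an adjusted p under 0.05. The code was first tested on simulated data. Tables were made with Python 3.11.15 and pandas 2.3.3. Coordinates are from GENCODE vM21 (GRCm38) and start windows from RefSeq (GRCm38.p6), which has one for 6 of the 9 genes. Named are the 9 genes, Camkk2, up to 4 partner genes with the largest rise and 4 with the largest fall among those past the test in the IL-4, stiff and stiff KO comparisons, and the 3 genes most correlated with each of the 8 tested ones. Other genes (receptors, ligand partners and markers given by level, and those that complete a small count) were named after their values were seen. The 9 genes, the partner and marker lists and the alternatives were chosen with earlier results of these data known. Alternatives were a pseudocount of 0.1, no filter, median-of-ratios scaling, a model of the compared groups alone, a replicate block, a threshold of 0.1 on the adjusted p, an added limit of 1 on the absolute log2 fold change, the 3 libraries with discordant Camkk2 left out, and each library left out in turn.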

Additional observations from a re-analysis of the deposited data

Results flagged for a closer look

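In the fit of all 12 libraries, the response of Igf1 to the stiff matrix differed between the genotypes by the test of the difference itself. That call was lost in 5 of 12 cases with 1 library left out. It was also lost without the 3 libraries whose Camkk2 goes against the label. The interaction of genotype and stiffness was -0.85 on the log2 scale (limma, Benjamini-Hochberg adjusted p = 0.0103): Igf1 was 1.06 higher in WT stiff than in WT soft and 0.21 higher in KO stiff than in KO soft. Both WT libraries of the stiff matrix were above both of the soft matrix, and so were both KO libraries. Such groups did not overlap for 42.8% of all genes tested in WT and 32.3% in KO. The 2 KO groups each contain 1 library whose Camkk2 goes against the label, as does WT soft, and the part of these libraries in the difference is given only by the values without them.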

How the results depend on the processing

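For the 8 tested genes, 57 log2 fold changes were recomputed under 20 alternatives each, 1140 values in all. Of these, 1005 kept their direction and side of the threshold, 101 lost the call, 22 gained it and 12 changed sign; of the 24 values past the test none changed sign. Of 820 values for named partner genes, 684 kept the call, 136 lost it and 0 changed sign. With the added limit of 2-fold the counts of genes past the test were 1 in WT soft+IL-4, 3 in KO soft+IL-4, 2 with the genotypes averaged, 1 in WT stiff, and 0 between the stiff groups and for the interaction of genotype and stiffness. Without the 3 libraries with discordant Camkk2 they were 2, 2 and 3 for WT soft+IL-4, KO soft+IL-4 and WT stiff and 0 for the last 2. With only the groups compared in the model they were 0 for WT stiff, between the stiff groups and for that interaction, as were the counts over all genes. Fewer samples enter these fits. The shares of all genes beside the counts with the 2-fold limit and without the 3 libraries are given above. At an adjusted p under 0.1 the interaction count was 2, beside 1.68% of all genes. With 1 library left out, the counts ranged from 2 to 7 in WT soft+IL-4, from 2 to 7 in KO soft+IL-4, from 5 to 7 with the genotypes averaged, from 2 to 6 in WT stiff, from 0 to 1 in WT stiff against WT soft+IL-4, from 1 to 4 between the stiff groups and from 0 to 3 for the interaction of genotype and stiffness. The share of all genes past the test also moved with the library left out, in each of these comparisons, so the ranges do not describe these genes alone. The IL-4 log2 fold changes do not use the WT stiff libraries, which enter those tests only through the shared estimate of spread. The cause was not tested.

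The 12 changes of sign all concern values that had not passed, most of them near 0. Grn in KO soft+IL-4 was 0.00965 with median-of-ratios scaling and ranged from -0.10 to 0.0084 with 1 library left out. In KO stiff against KO soft the ranges with 1 library left out were -0.038 to 0.34 for Csf1, -0.20 to 0.012 for Csf1r and -0.085 to 0.027 for Grn, each changing sign without KO soft 2. Csf1 ranged from -0.24 (without WT stiff 1) to 0.57 between the stiff groups and from -0.84 to 0.011 (without WT soft 1) for the interaction of genotype and stiffness. That interaction of Hbegf was 0.14 with a pseudocount of 0.1 and ranged from -0.42 to 0.29, being above 0 without WT soft 2, WT stiff 2, KO soft 2 or KO stiff 2.

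Groups share replicate numbers in the labels, but same-numbered libraries deviated together in only 3 of 15 pairs of groups (correlation over 0.1; range -0.05 to 0.31), so the numbers were not taken to pair the samples. These are the 3 pairs among WT soft, KO soft and KO stiff, the groups in which Camkk2 was high in library 1 and low in library 2, so there the discordance and the replicate number cannot be told apart. With the replicate block, 56 of the 57 values kept their call. Csf1r passed in KO soft+IL-4 (limma, Benjamini-Hochberg adjusted p = 0.0442), which made the count there 6, beside 10.2% of all genes. The counts were 4 in WT soft+IL-4, 5 in WT stiff, 2 between the stiff groups and 1 for the interaction of genotype and stiffness. Beside these, 10.6%, 10.4%, 4.98% and 1.13% of all genes passed. Depth is unknown, so how far it limits the low genes Hbegf, Csf1 and Pdgfc cannot be given.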
